A study of Mus musculus with 8 samples.

Results

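The 9 genes described here carry transforming growth factor beta (TGF-beta) signals: the ligand Tgfb1, the receptors Tgfbr1 and Tgfbr2, the signal transducers Smad2, Smad3 and Smad4, and the inhibitors Smad6, Smad7 and Ski. They were chosen by name, out of 21887 protein-coding genes, with earlier results of these data known. All 9 were matched in the RefSeq annotation of build GRCm38.p6. For each, the gene span plus 2 kb on both sides was taken as its window, and every listed peak that overlapped the window by at least 1 base was counted. The 8 lists held 298 peaks in these windows, 227 in microglia and 71 in total cells.

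The libraries map lactylation of histone H4 at lysine 12 (H4K12la), a lactate-derived histone mark, by CUT&Tag, in which an antibody tethers the Tn5 transposase to marked chromatin so that nearby DNA is cut out and sequenced. There were 8 libraries in 4 groups of 2, since each of 2 cell preparations, total cells and microglia, was made from WT and from 5XFAD mice. Total cells are the suspension left after the brain without its cerebellum was dissociated and freed of myelin, and microglia are the cells then retained on CD11b beads. The 5XFAD mouse is an Alzheimer disease model that carries mutant human transgenes, driven by the mouse Thy1 promoter that is active in neurons. The sources used here give no strain, age, sex or number of animals per library, and no label says whether each library is a different animal, so p-values measure only the spread between these samples, which may be technical. CD11b is present on other myeloid cells as well as on microglia. In these bulk libraries, fewer cells of a type and less of the mark per cell cannot be told apart.

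TGF-beta 1 is secreted in a latent form that must be released before it can bind. The active ligand brings the type II receptor, encoded by Tgfbr2, together with the type I receptor, encoded by Tgfbr1, which phosphorylates SMAD2 and SMAD3. These join SMAD4 and enter the nucleus to regulate genes, while SMAD6, SMAD7 and SKI restrain the signal. In the brain the pathway is known for keeping microglia in their adult, homeostatic state.

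The lists held 22543 to 32967 peaks in total cells and 22300 to 41783 in microglia, and covered 0.286% to 0.542% and 0.562% to 1.33% of the chromosomes, respectively. The shortest and longest microglia lists were those of WT replicate 1 and 5XFAD replicate 2. A typical (median) peak spanned 580 to 735 bp in a microglia list and 287 to 366 bp in a total cell list. Read depth is unknown from these lists, and a missing peak means that none was listed. The labelled cell types were checked against marker genes by the mean percent of their windows covered. The 12 microglia markers averaged 5.73% to 16.5% in the microglia libraries and 0.167% to 1.37% in total cells, and 9 of them were higher in all 4 microglia than in all 4 total cell libraries. The 9 neuron markers averaged at most 0.110% in any library, and 6 of them had no peak at all. Mean cover of 3 other marker lists was also higher in the microglia libraries: 7 vascular markers averaged 2.90% to 5.63% against 0.101% to 1.84%, 7 oligodendrocyte markers 2.08% to 6.02% against 0.0259% to 1.46%, and 7 astrocyte markers 2.91% to 5.73% against 1.29% to 1.96%. By gene, 4 of 7 vascular, 3 of 7 oligodendrocyte, 2 of 7 astrocyte and 1 of 9 neuron markers were higher in all 4 microglia than in all 4 total cell libraries. The median over the astrocyte markers was lower in microglia, at 1.39% against 1.94%, while the median of their differences by gene was 0.122 percentage points in favour of microglia. The 9 markers of other leukocytes averaged 0.0396% to 1.28% against 0% to 0.0426%, with 6 at 0 in every library and 0 of 9 higher in all 4 microglia libraries. The part of these cells in the results below was not tested.

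Tgfbr1 was the only gene of those with a RefSeq promoter window (250 bases before to 50 after a start site) in which a listed peak overlapped that window. The promoter window at its annotated gene start is printed because peaks of 7 libraries, all but total cells 5XFAD replicate 1, reached into it. The window is chr4:47352972-47353271 of GRCm38.p6 on the plus strand, 5′ to 3′, from RefSeq. Capitals mark the 57 bases that lay inside the peak of every one of those 7 libraries.
Tgfbr1 promoter: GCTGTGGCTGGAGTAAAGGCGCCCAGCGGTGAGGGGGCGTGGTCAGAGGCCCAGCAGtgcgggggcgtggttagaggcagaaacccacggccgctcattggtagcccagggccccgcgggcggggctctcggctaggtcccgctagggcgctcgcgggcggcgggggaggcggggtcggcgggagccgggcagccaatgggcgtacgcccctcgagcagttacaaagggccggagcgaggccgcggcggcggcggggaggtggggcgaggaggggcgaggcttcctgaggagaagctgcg
The promoter was searched on both strands for 4 motifs. The SMAD box CAGAC was not found in these 300 bases, and 49.6% of 32851 promoter windows of that length hold it. The GC-rich SMAD element GGCGC matched 3 times, with 2 of the matches, which overlap each other on opposite strands, inside the capitals, and 36.9% of promoter windows hold it. The GC box GGGCGG matched 2 times (35.7% of windows) and CCAAT 2 times (37.4%), all outside the capitals. A second RefSeq promoter window of Tgfbr1, chr4:47385966-47386265, had no peak in any library and was not printed. It held 1 match each of the SMAD box and CCAAT, and none of the other motifs. All of these are matches of letters and not measured binding sites.

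At that promoter the peaks ended just before the annotated start of Tgfbr1 at base 47353222 of chromosome 4. The peak ended 139 bases before the start in total cells WT 1, 186 bases before it in total cells WT 2 and 24 bases before it in total cells 5XFAD 2. In microglia the nearest edge was 139 bases before the start in both WT libraries and 194 bases before it in both 5XFAD libraries. The peaks differed in how far they extended upstream. Widths were 294, 247 and 318 bp in the 3 total cell libraries, and 378 bp in microglia WT 1. Microglia WT 2 and 5XFAD 2 had peaks of 1465 and 1455 bp there, and microglia 5XFAD 1 had a pair of 364 and 761 bp. No peak in any library overlapped the RefSeq promoter windows of Tgfb1, Tgfbr2, Smad3, Smad6 or Ski, and the promoters of Smad2, Smad4 and Smad7 were not used here.

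The comparison of microglia with total cells asks where the mark lies in the purified cells relative to the mixed suspension. Peaks covered more of the window in all 4 microglia libraries than in any total cell library at 5 of the 9 genes: both receptors Tgfbr1 and Tgfbr2, Smad3, Smad6 and Ski. The same held for 18.5% of all coding genes, and for 23.1% of the 10626 genes at least as long as Tgfb1, the shortest of the 9 at 18076 bp, a background added after the data were seen. None of the 9 showed the reverse, which 1.64% of coding genes did. The median microglia minus total cell difference was 4.56 percentage points over the 9 genes and 0.0688 over all coding genes, 51.0% of which were higher in microglia. All 9 genes had a peak in at least 1 library, but only 66.0% of coding genes (14445) did. The remaining coding genes tied at 0 in both preparations and are counted in the shares and the median over all coding genes. An exact two-sided permutation test over the 70 ways to assign the libraries gave p = 0.0286 for each of the 5 genes, the smallest p that 4 against 4 can give. After Benjamini-Hochberg adjustment over all 21887 genes this was 0.142, and no gene passed 0.05, while 4412 had an unadjusted exact permutation p below 0.05.

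**Figure D1:**
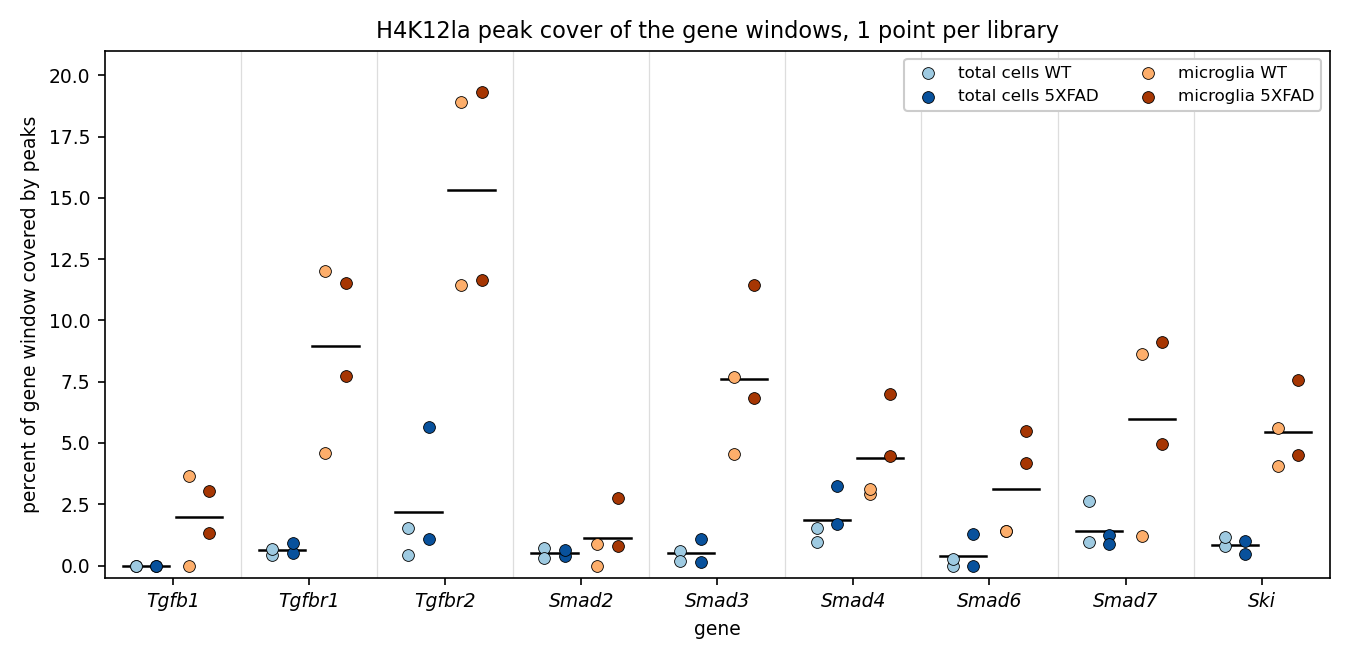
Percent of each gene's window (gene span plus 2 kb on both sides) covered by listed peaks, with 1 point per library and a bar at the mean of each preparation. The 4 microglia points lie above the 4 total cell points at Tgfbr1, Tgfbr2, Smad3, Smad6 and Ski, and overlap them at Tgfb1, Smad2, Smad4 and Smad7.

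Because microglia lists cover more of the genome, the cover of each window was also divided by the cover of its whole list. On this relative scale Tgfbr1, Tgfbr2, Smad3 and Ski still did not overlap between preparations, 4 of 9 genes against 6.94% of all coding genes. When every list was cut to its 22284 highest-scoring peaks, the same 5 genes as above were higher in all 4 microglia libraries, against 17.4% of coding genes. Smad6 was therefore the gene whose separation depended on the scale.

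Presence alone was less distinct than cover. None of the 9 genes had a peak in all 4 microglia and no total cell library, as 1.2% of coding genes did, or in all 4 total cell and no microglia library, as 0.982% did. Tgfbr1, Tgfbr2, Smad3, Smad4, Smad7 and Ski had a peak in all 8 libraries, 6 of 9 genes against 26.7% of all coding genes and 39.5% of those at least as long as Tgfb1. These genes are long, with a median span of 69002 bp against 17169 bp over all coding genes, and a longer window is more often met by a peak.

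The ligand Tgfb1 (gene ID 21803, chr7:25687002-25705077, plus strand), which encodes TGF-beta 1, was the least marked of the 9 genes in total cells. No total cell library had a peak in its window. Peaks covered 0% of the window in microglia WT 1, 3.65% in WT 2, 1.31% in 5XFAD 1 and 3.03% in 5XFAD 2. The groups overlapped at 0, because 1 microglia library also had none (2.0% ± 1.66 (SD, n = 4) in microglia; exact permutation p = 0.143, adjusted 0.398). The 3 marked libraries shared a site at chr7:25689046-25689715, 2.04 to 2.71 kb into the gene. Its peaks were 476, 290 and 670 bp wide in WT 2, 5XFAD 1 and 5XFAD 2, with scores above 21.3%, 58.6% and 46.0% of their lists. These percentiles rank the authors' peak score within a list and are not compared between lists as a change. The window of Tgfb1 also holds part of the coding gene B9d2.

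Tgfbr1 (gene ID 21812, chr4:47353222-47414926, plus strand) encodes the type I receptor, the kinase that phosphorylates SMAD2 and SMAD3. Peaks covered 0.447% and 0.676% of its window in WT total cells and 0.493% and 0.913% in 5XFAD total cells. In microglia they covered 4.57% and 12% in WT and 7.73% and 11.5% in 5XFAD. The lowest microglia library was well above the highest total cell library. The means were 8.96% ± 3.50 (SD, n = 4) in microglia and 0.632% ± 0.212 (SD, n = 4) in total cells, a ratio of 14.2 (exact permutation p = 0.0286, adjusted 0.142). In microglia this cover was above that of 89.8% of coding genes, and in total cells above that of 54.4%. The number of peaks was 8.75 ± 2.22 (SD, n = 4) in microglia and 1.5 ± 0.577 (SD, n = 4) in total cells.

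The peaks of Tgfbr1 merged into 12 sites, of which 9 were in no total cell library and 3 were listed in 1 library only. How many of all merged sites were in no total cell library was not counted. Besides the promoter, 3 sites were in all 4 microglia libraries. The site 14.19 to 14.98 kb downstream of the start had microglia peaks of 645 to 762 bp and a single total cell peak of 197 bp, in WT 2. The site at 56.57 to 58.36 kb, inside the gene near its 3′ end, was also listed in both 5XFAD and neither WT total cell library. The site at chr4:47415645-47417044 lay past the 3′ end of the gene and was the only Tgfbr1 site found in all 4 microglia and no total cell library. Its peaks were 735 and 1400 bp wide in the WT pair of microglia libraries and 573 and 896 bp wide in the 5XFAD pair, with scores above 88.8%, 75.7%, 56.1% and 83.5% of their lists. Sites of Tgfbr1 between the promoter and 29.50 kb also overlap the long non-coding RNA gene Gm32435, and the lists do not tell which transcript a peak belongs to.

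**Figure D2:**
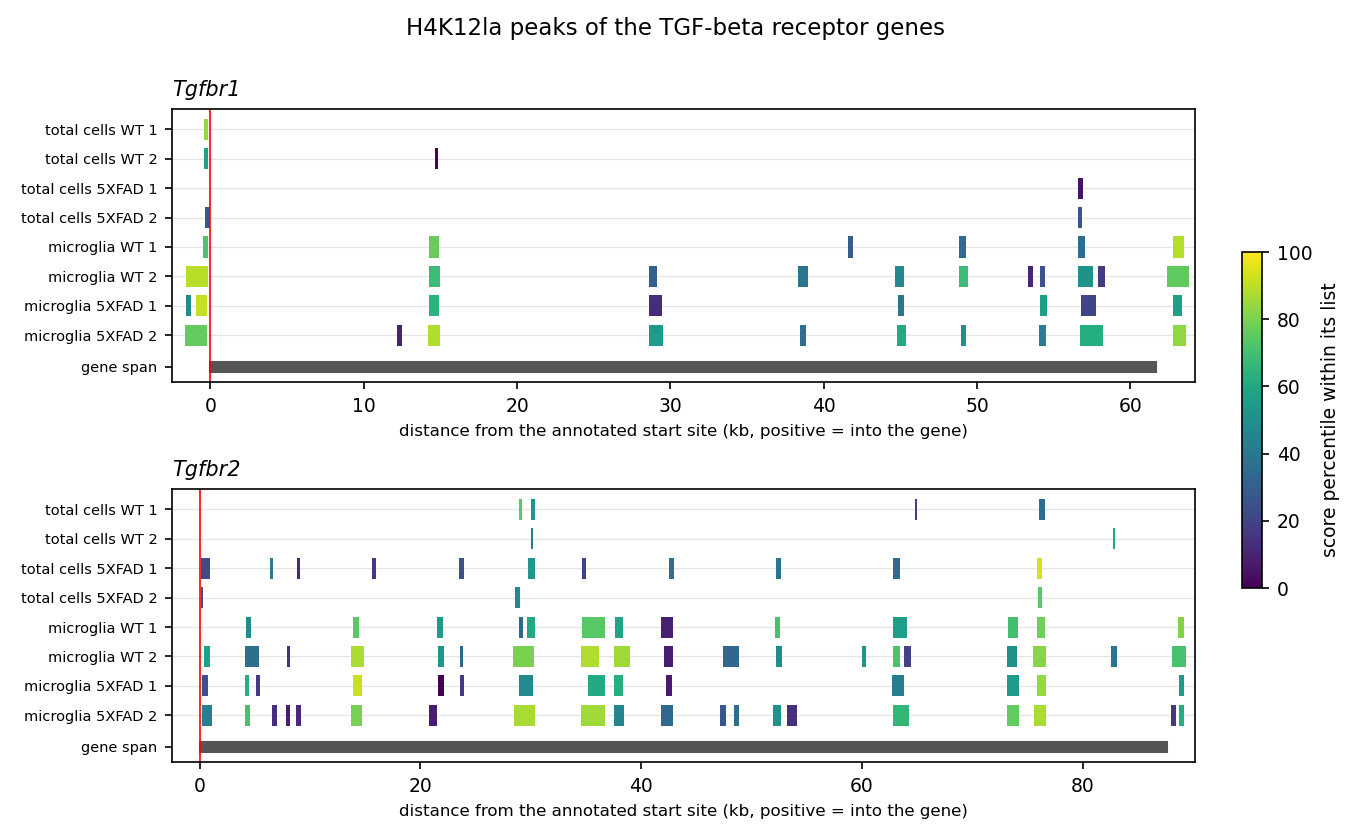
Peaks at Tgfbr1 and Tgfbr2 in each of the 8 libraries, against distance in kb from the annotated start (red line, positive into the gene), coloured by score percentile within the list, with the gene span as a grey bar. Microglia peaks lie along the length of both genes, while total cell peaks are few and narrow except in 5XFAD 1 at Tgfbr2.

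Tgfbr2 (gene ID 21813, chr9:116087695-116175363, minus strand) encodes the type II receptor, which binds the ligand and activates the type I receptor. It was the most covered of the 9 genes in microglia, above 97.3% of all coding genes. Peaks covered 11.4% and 18.9% of its window in the WT pair of microglia libraries and 11.6% and 19.3% in the 5XFAD pair. In total cells they covered 1.52% and 0.452% in WT and 5.64% and 1.07% in 5XFAD. The highest total cell library was 5XFAD 1, whose list is the longest of that preparation, and it stayed below every microglia library. The means were 15.3% ± 4.37 (SD, n = 4) and 2.17% ± 2.35 (SD, n = 4), a ratio of 7.06 (exact permutation p = 0.0286, adjusted 0.142). Without total cells 5XFAD 1 the total cell mean was 1.01% and the ratio 15.1. Leaving out any other single library gave ratios from 5.59 (total cells WT 2) to 7.66 (microglia WT 1).

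The peaks of Tgfbr2 merged into 23 sites, the most of any of the 9 genes. All 4 microglia libraries shared 11 of them, and 6 of these 11 were in no total cell library. A site 28.41 to 30.41 kb into the gene was listed in all 8 libraries and also overlaps a long non-coding RNA gene. In total cells its peaks were 349 and 295 bp (WT 1), 181 bp (WT 2), 612 bp (5XFAD 1) and 401 bp (5XFAD 2). In microglia the bases covered there came to 1106 and 1875 in WT and 1244 and 1960 in 5XFAD, above every total cell library. A further site at 34.53 to 36.76 kb had wide microglia peaks, of 2093 and 1636 bp in WT and 1563 and 2211 bp in 5XFAD, and total cells had only a 362 bp peak there, in 5XFAD 1. The site next to the start, 0.10 to 1.09 kb downstream, was listed in 3 microglia libraries and in both 5XFAD but neither WT total cell library.

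Smad2 and Smad3 encode the SMADs that the type I receptor phosphorylates, and the lists differed between them. Smad3 (gene ID 17127, chr9:63646766-63757994, minus strand) was covered over 4.53% and 7.68% of its window in the WT pair of microglia libraries and 6.84% and 11.4% in the 5XFAD pair. In total cells the values were 0.591% and 0.192% in WT and 1.08% and 0.157% in 5XFAD. All 4 microglia libraries were above all 4 total cell libraries. The means were 7.62% ± 2.87 (SD, n = 4) and 0.505% ± 0.431 (SD, n = 4), a ratio of 15.1 (exact permutation p = 0.0286, adjusted 0.142). Without total cells 5XFAD 1 the total cell mean was 0.313% and the ratio 24.3. Leaving out any other single library gave ratios from 12.3 (total cells 5XFAD 2) to 17.1 (microglia WT 1).

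Of the 20 sites of Smad3, 16 were in no total cell library, and 6 of these were in all 4 microglia libraries. Among the 20 sites, 9 were listed in 1 library only. The share of all merged sites that were in no total cell library was not counted. Its leading site was chr9:63705465-63707759, 50.24 to 52.53 kb downstream of the start and inside the gene. Microglia peaks there were 1843 and 2073 bp wide in WT and 2179 and 2295 bp wide in 5XFAD. Their scores were above 97.4%, 97.8%, 97.6% and 98.1% of the peaks in their lists, so that this site was near the top in each microglia library. In total cells, WT 1 had a 418 bp peak there (above 54.3% of its list) and 5XFAD 1 a 915 bp peak (above 68.9%), and the other two had none. The nearest site within the gene to its start was 2.49 to 3.30 kb downstream and was in all 4 microglia and no total cell library.

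Smad2 (gene ID 17126, chr18:76241090-76311748) showed no such difference. Peaks covered 0.717% and 0.300% of the window in WT total cells and 0.379% and 0.640% in 5XFAD total cells. In microglia they covered 0% and 0.889% in WT and 0.813% and 2.74% in 5XFAD. The preparations overlapped, since microglia WT 1 had no peak and lay below all total cell libraries (1.11% ± 1.16 (SD, n = 4) against 0.509% ± 0.201 (SD, n = 4); exact permutation p = 0.457, adjusted 0.912). The sign of the small difference depended on the scale, with microglia higher in cover and lower in relative cover. Of its 5 sites, the one 34.14 to 34.47 kb from the lower-coordinate end of the gene was listed in all 4 total cell and no microglia library. Its peaks were 303 and 224 bp in WT and 283 and 288 bp in 5XFAD.

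Smad4 (gene ID 17128, chr18:73634790-73703791) encodes the shared partner of the receptor-activated SMADs and was marked in both preparations. Peaks covered 1.52% and 0.975% of its window in WT total cells and 3.25% and 1.69% in 5XFAD total cells. In microglia they covered 2.91% and 3.14% in WT and 4.46% and 6.99% in 5XFAD. The preparations overlapped by a single library, total cells 5XFAD 1, which lay above both WT microglia libraries (4.38% ± 1.87 (SD, n = 4) in microglia and 1.86% ± 0.974 (SD, n = 4) in total cells; exact permutation p = 0.0857, adjusted 0.301). Without that library the preparations did not overlap. In total cells this cover was above that of 76.3% of coding genes, and in microglia above that of 74.3%.

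Smad4 had sites of opposite kinds among its 11. The site 62.06 to 62.35 kb from the lower-coordinate end was listed in all 4 total cell and no microglia library, with peaks of 264 and 238 bp in WT and 266 and 296 bp in 5XFAD. The site at 9.68 to 10.53 kb was listed in all 4 microglia and no total cell library. The site at 17.43 to 17.96 kb was listed in all 4 total cell libraries and in both 5XFAD microglia libraries, where its peaks of 301 and 393 bp scored above only 7.97% and 21.9% of their lists. Presence at this last site in microglia therefore rested on peaks of low score.

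Smad6 and Smad7 encode inhibitory SMADs that interfere with receptors and the co-SMAD, and Smad7 is itself a known target of the pathway. Smad6 (gene ID 17130, chr9:63953076-64022085, minus strand) was covered over 1.41% and 1.40% of its window in the WT pair of microglia libraries and 4.16% and 5.47% in the 5XFAD pair. In total cells it had no peak in WT 1 and 5XFAD 2, and 0.255% and 1.30% were covered in WT 2 and 5XFAD 1. The gap between the preparations was narrow, from 1.30% to 1.40% (3.11% ± 2.04 (SD, n = 4) against 0.389% ± 0.619 (SD, n = 4); exact permutation p = 0.0286, adjusted 0.142). Without total cells 5XFAD 1 the total cell mean of Smad6 was 0.0849%, and the ratio of means was 36.6 in place of 8.0. That total cell mean rested on the peak of WT 2 alone. Leaving out any other single library gave ratios from 5.98 (microglia 5XFAD 2) to 9.47 (microglia WT 2). Of its 6 sites only 1 was in all 4 microglia libraries.

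Smad7 (gene ID 17131, chr18:75367365-75395935) was covered over 1.21% and 8.63% of its window in the WT pair of microglia libraries and 4.97% and 9.13% in the 5XFAD pair. In total cells the values were 2.65% and 0.952% in WT and 1.26% and 0.863% in 5XFAD. Microglia WT 1 lay below 2 of the total cell libraries and the other microglia libraries above all of them, so the groups overlapped (5.99% ± 3.69 (SD, n = 4) against 1.43% ± 0.828 (SD, n = 4); exact permutation p = 0.0857, adjusted 0.301). Without microglia WT 1 the preparations did not overlap at Smad7, nor at Tgfb1 and Smad2. A site 20.10 to 20.80 kb from the lower-coordinate end was in all 4 microglia and no total cell library, with peaks of 394 and 657 bp in WT and 485 and 463 bp in 5XFAD. Their scores were above 83.9%, 68.1%, 86.6% and 82.9% of their lists.

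Ski (gene ID 20481, chr4:155154075-155222535, minus strand) encodes a nuclear co-repressor that binds SMADs. Peaks covered 4.06% and 5.61% of its window in the WT pair of microglia libraries and 4.52% and 7.58% in the 5XFAD pair. In total cells they covered 0.811% and 1.15% in WT and 0.999% and 0.480% in 5XFAD. The groups did not overlap (5.44% ± 1.57 (SD, n = 4) against 0.859% ± 0.287 (SD, n = 4), a ratio of 6.33; exact permutation p = 0.0286, adjusted 0.142).

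Ski carried, with Tgfbr2, 1 of the 2 sites that were listed in all 8 libraries. It lay at chr4:155223251-155224240, 0.72 to 1.71 kb upstream of the start. In total cells the peaks there were 285 and 303 bp (WT 1), 561 bp (WT 2), 427 bp (5XFAD 1) and 348 bp (5XFAD 2), and the best-scoring of each library was above 99.1%, 99.1%, 96.2% and 95.9% of its list. In microglia they were 843 and 951 bp in WT and 575 and 897 bp in 5XFAD, with scores above 74.6%, 80.7%, 87.8% and 89.9%. The site was thus near the top of every total cell list by score. It was wider in 3 microglia libraries than in any total cell library, and in microglia 5XFAD 1 it covered about as much as in the 2 WT total cell libraries. A further Ski site, 19.85 to 21.78 kb downstream of the start, was in all 4 microglia and no total cell library, with leading scores above 80.3%, 85.5%, 88.2% and 82.5% of their lists.

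**Figure D3:**
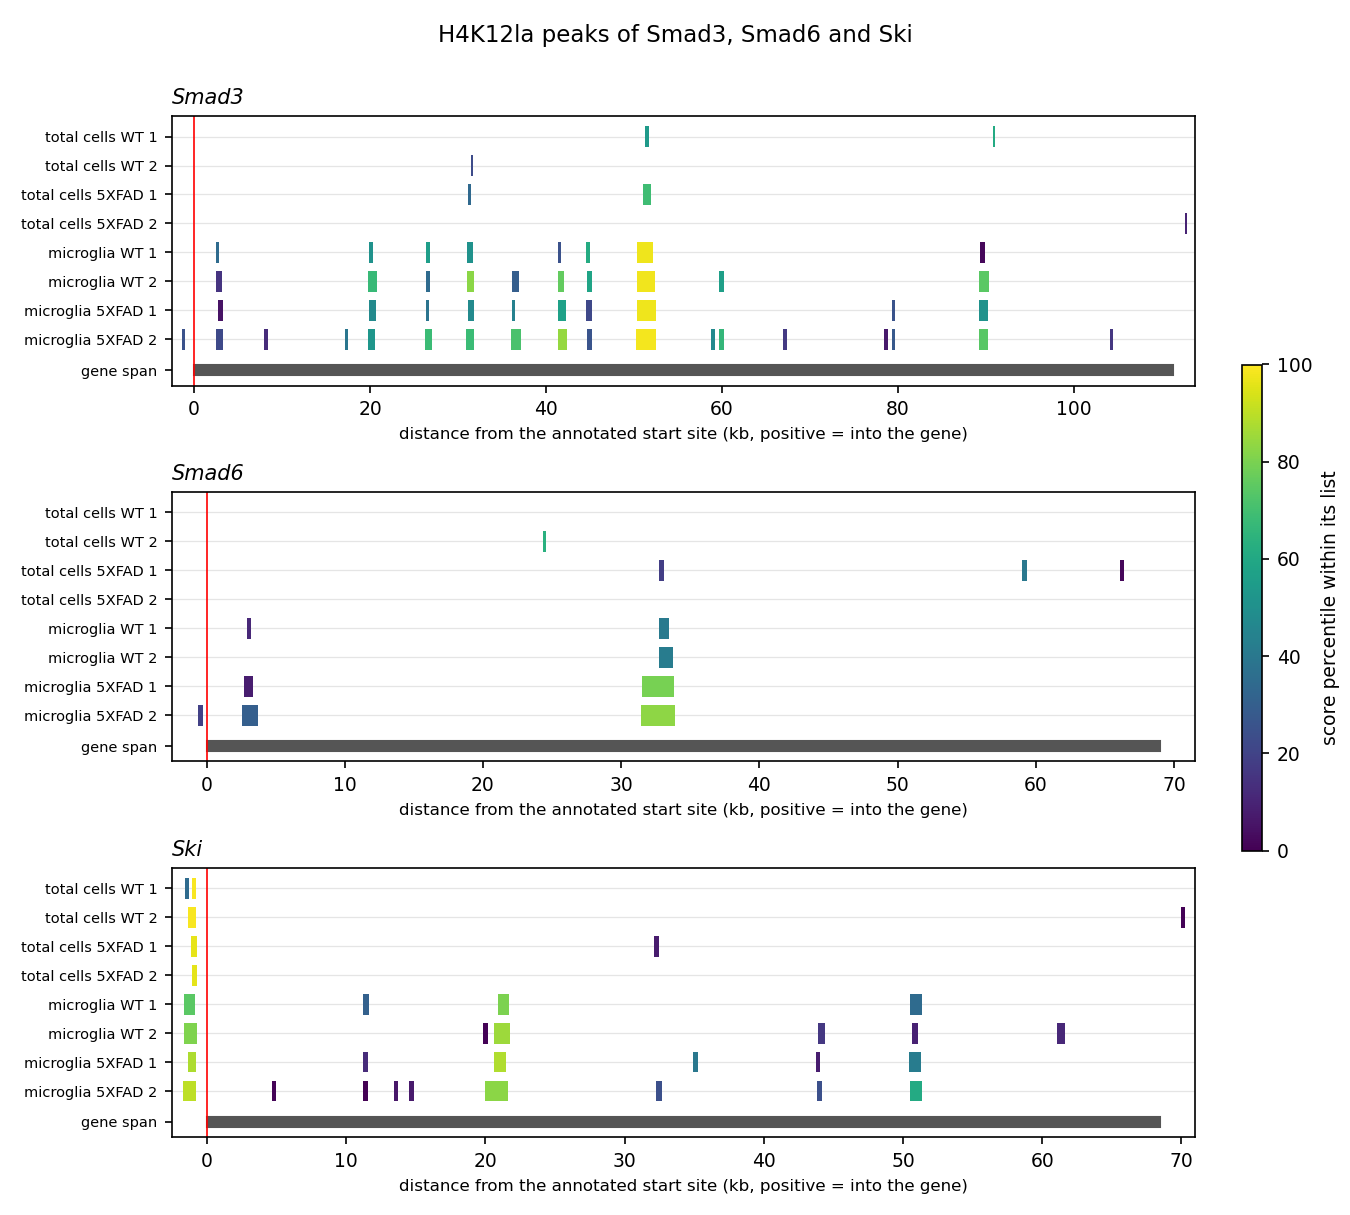
Peaks at Smad3, Smad6 and Ski in each of the 8 libraries, against distance in kb from the annotated start (red line, positive into the gene), coloured by score percentile within the list, with the gene span as a grey bar. The Smad3 site at 50.24 to 52.53 kb is bright in all 4 microglia libraries, the Ski site upstream of the start appears in all 8, and the Smad6 site at 31.42 to 33.93 kb is wider in the 5XFAD than in the WT microglia libraries.

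**Figure D4:**
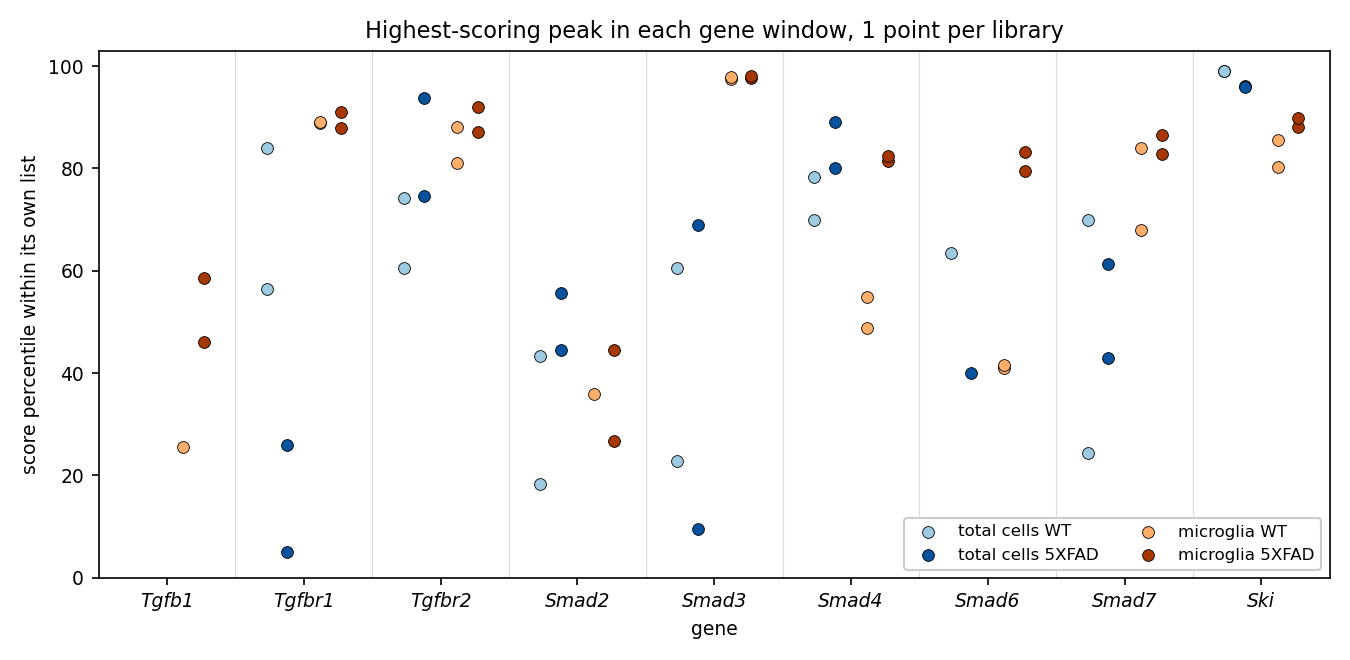
Score percentile, within its own list, of the highest-scoring peak in each gene window, with 1 point per library that has a peak and colours for the 4 groups. Smad3 in microglia (above 97.4%) and Ski in total cells (95.9% to 99.1%) stand at the top of their lists, and Tgfb1 has points in 3 microglia libraries only.

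Over all 9 genes the peaks merged into 99 sites, 86 of them inside a gene span. The median width of their microglia peaks was 607 bp, against 295 bp for their total cell peaks. Each value lay within the spread of whole-list medians for its preparation given above, so this contrast was not particular to the 9 genes. Among their peaks, 7 from microglia but 0 from total cells were at least 2000 bp wide. The share of such wide peaks over the whole lists was not counted. All 4 microglia libraries and no total cell library held 17 sites (17.2%), 6 each at Tgfbr2 and Smad3, 2 at Ski and 1 each at Tgfbr1, Smad4 and Smad7. Over all merged sites of the genome this share was 4.51%. All 4 total cell and no microglia library held 2 sites (2.02%), those at Smad2 and Smad4, against 1.34% of all sites. All 8 libraries held 2 sites (2.02%), at Tgfbr2 and Ski, against 7.19% of all sites. Sites of 1 gene are neighbours in the same libraries and are not independent, so the shares are descriptions.

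The comparison of 5XFAD with WT asks whether the mark at these genes differs in the disease model. Of the 9 genes, 0 had peaks in the 2 microglia libraries of 5XFAD mice but none in those of WT mice, against 2.81% of coding genes, and 0 had the opposite pattern, against 0.498%. In total cells 0 of 9 genes had peaks in the 5XFAD pair alone (2.86% of coding genes) and 0 in the WT pair alone (1.6%). With 2 libraries against 2, an exact permutation test cannot give a p below 0.333, so these are patterns with no test.

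By cover, Smad4 and Smad6 were higher in both 5XFAD than in both WT microglia libraries, 2 of 9 genes, while 19.1% of all coding genes showed this. None was higher in both WT microglia libraries (1.78% of coding genes). In total cells Smad4 was higher in both 5XFAD libraries, 1 of 9 genes against 16.6%, and none in both WT libraries (5.64%). These shares are near or below the background. The 5XFAD microglia lists were on average longer than the WT ones, and the part of list length in the differences was not tested.

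Smad4 was the only one of the 9 genes with higher cover in 5XFAD in both preparations, a pattern of 5.41% of coding genes, and none had the opposite pattern, which 0.219% had. Its mean cover was 5.73% in 5XFAD and 3.03% in WT microglia, and 2.47% in 5XFAD and 1.25% in WT total cells, each over 2 libraries. An exact two-sided permutation of genotype within preparations, with 36 arrangements, gave p = 0.0556, the smallest it allows, and 0.987 after adjustment over all genes. On the relative scale Smad4 was again higher in 5XFAD in both preparations (2.33% of coding genes), and Ski was higher in WT in both (2.12% of coding genes). Both separations were narrow in microglia. Relative cover of Smad4 there was 5.18 and 3.27 in WT and 5.49 and 5.24 in 5XFAD. For Ski it was 7.21 and 5.85 in WT and 5.56 and 5.69 in 5XFAD. The Smad4 site at 58.57 to 59.37 kb from the lower-coordinate end showed the difference in widths: 508 and 489 bp in WT microglia, 726 and 799 bp in 5XFAD microglia, no peak in WT total cells, and 663 and 481 bp in 5XFAD total cells.

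Single sites were compared in the same way. In microglia, 2 of the 99 sites were listed in the 5XFAD pair and not in the WT pair, 1 at Smad3 and 1 at Smad4, against 6.11% of all sites, and the reverse held for 0 sites, against 1.23%. In total cells 4 sites (4.04%) were in both 5XFAD and neither WT library, 1 at each receptor and 2 at Smad4, against 5.47% of all sites. A single site (1.01%), at Smad4, was in both WT and neither 5XFAD total cell library, against 3.3%. The members' shares were below the background in each of these 4 patterns.

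Among the 30 sites found in all 4 microglia libraries, 7 (23.3%) were wider in both 5XFAD than in both WT libraries, while 31.9% of the 16720 such sites in the genome were. None was wider in both WT libraries, against 5.93%. The 7 sites were 3 at Smad3 and 1 each at Tgfbr2, Smad4, Smad6 and Ski. The largest difference, singled out after the values were seen, was at chr9:63988159-63990667, 31.42 to 33.93 kb into Smad6. The bases covered there were 724 and 1022 in the WT pair of microglia libraries and 2353 and 2509 in the 5XFAD pair, with scores above 41.0%, 41.7%, 79.4% and 83.1% of their lists. The mean width ratio was 2.78, a ratio that 1.03% of the 16720 sites reached or passed, and the median ratio over those sites was 1.15. Total cells had only a 334 bp peak there, in 5XFAD 1. This comparison of widths was added after the data were seen and has no test.

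**Figure D5:**
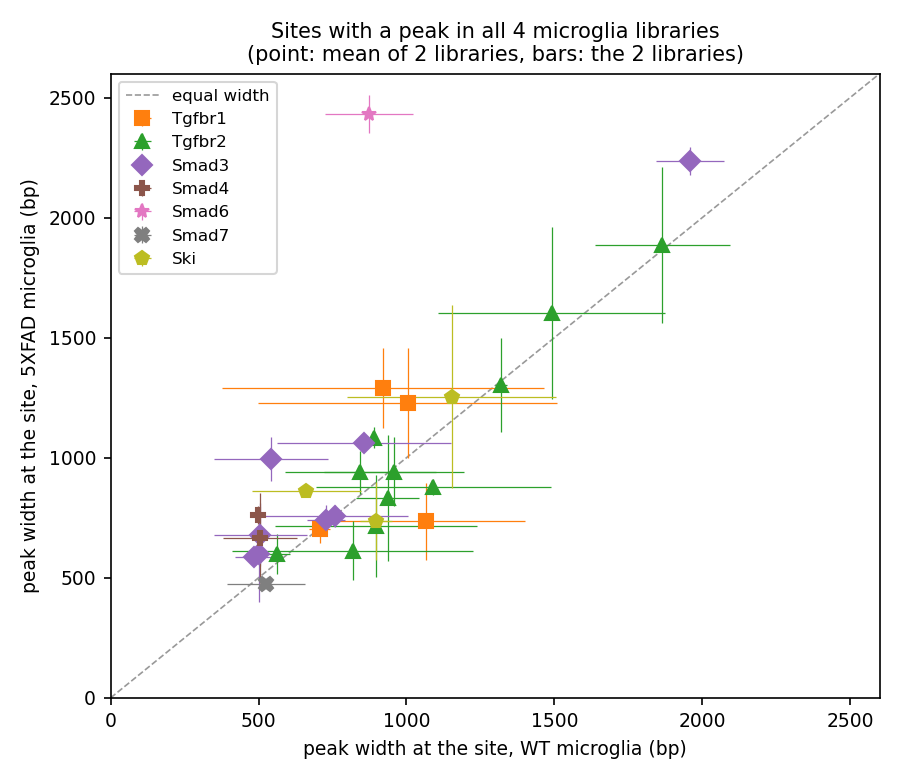
Bases covered by peaks at the 30 sites of 7 genes listed in all 4 microglia libraries, in bp, with WT on the horizontal and 5XFAD on the vertical axis; each point is the mean of 2 libraries, bars run between the 2 libraries, and the dashed line marks equal width. The Smad6 site lies farthest above the line, with means of 873 bp in WT and 2431 bp in 5XFAD.

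Other genes of the pathway were read from lists by role, as counts of genes whose cover was higher in all 4 microglia libraries than in all 4 total cell libraries, to be set against the 18.5% of all coding genes. Of 14 further ligands and proteins that store or release them, 0 were. Of these 14 genes, 3 had no peak in any library, while 66.0% of all coding genes had a peak in at least 1 library. Of 12 further receptors and co-receptors of the family, 5 were, and 1 showed the reverse, Bmpr1b, a receptor for bone morphogenetic proteins (BMP). Peaks covered 0.549% and 0.376% of the Bmpr1b window in WT total cells and 0.164% and 0.0606% in 5XFAD total cells, and it had no peak in microglia.

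Of 9 genes listed as other SMADs and SMAD partners, 3 were higher in microglia, namely Map3k7, Tab1 and Tab2. These 3 do not encode SMADs. The 1 gene higher in total cells was Smad9, which encodes a SMAD of the BMP branch. Its window was covered over 1.35% and 0.729% in WT and 2.10% and 0.426% in 5XFAD total cells and had no microglia peak. Of 13 genes listed as regulators of the pathway, most of them inhibitors, 7 were higher in microglia and 0 in total cells. Of 10 known target genes 1 was higher in microglia, and that gene is also among the 7 regulators. Of 10 genes that microglia are known to express in dependence on TGF-beta, 9 were higher in microglia. Among these Siglech, a lectin of microglia, had peaks over 8.34% and 18.1% of its window in the WT pair of microglia libraries and 16.6% and 19.5% in the 5XFAD pair and none in total cells. Several genes of this last list are also microglia markers, so it is not separate from the marker check.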

How the data were processed

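H4K12la was mapped by CUT&Tag in 8 mouse brain libraries, with groups and replicates read from the titles of the samples. The authors deposited 1 headerless peak list per library, each line with a chromosome, start, end and whole-number score. The tools named per the submitters' processing notes were Bowtie2, deepTools and fastp 0.19.6, with build GRCm38 (mm10). Not given in the sources used here are the caller of the peaks, its cutoff, any control and the unit of the score. The lowest score was 20 in every list. Starts were taken as counted from 0 and printed counted from 1.

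Windows were RefSeq GRCm38.p6 gene spans plus 2 kb on both sides, for the 21887 coding genes on the autosomes (1 to 19) and on X and Y. Cover was the percent of a window inside peaks. Sites were peaks of all 8 lists merged where they overlapped by 1 base. Tests were exact permutations over libraries with Benjamini-Hochberg adjustment over all genes, in Python 3.11.15 with numpy 2.4.6 and pandas 2.3.3, and figures used matplotlib 3.10.9. The code was tested on simulated data. No replicate lists were copies, with at most 193 identical intervals between 2 lists. Exon structure was not used here, and the lists hold no counts, so depth is unknown.

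Genes named were the 9 members, listed pathway genes with a peak in every library of 1 preparation and none of the other, and the 3 genes with the most similar cover. Map3k7, Tab1 and Tab2 were named in addition. Members and lists were chosen with earlier results of these data known. Alternatives changed the window, the peak filter, the scale and the libraries used.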

Additional observations from a re-analysis of the deposited data

How the results depend on the processing

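Tgfbr1, Tgfbr2, Smad3 and Ski stayed higher in all microglia than in all total cell libraries under every alternative window, peak filter, scale and set of libraries. Smad6 overlapped between preparations with windows of the gene span plus 5 kb on both sides, with the higher-scoring 50% of peaks and on the relative scale. Tgfb1 became higher in all microglia libraries with the gene span plus 5 kb. Smad7 did so with the higher-scoring 50% of peaks and with scores of at least 50. Leaving out 1 library at a time gave 5 to 8 genes higher in microglia (8 without microglia WT 1), 0 to 1 with peaks only in microglia (Tgfb1, without microglia WT 1), 0 to 2 only in 5XFAD microglia (Tgfb1 and Smad2, without microglia WT 2), and 1 to 2 higher in 5XFAD in both preparations (Smad6 joined Smad4 without total cells 5XFAD 2). The gene span plus 5 kb gave 1 gene with peaks in all microglia and no total cell library, Tgfb1. Genes with a peak in all 8 libraries numbered 3 with the gene span alone, 2 with the higher-scoring 50% and 3 with scores of at least 50. Each of these filters also gave 1 gene only in 5XFAD microglia (Smad6 and Tgfb1, respectively) and 1 only in WT total cells (Tgfbr1). The relative scale gave 1 gene higher in WT in both preparations, Ski. The Smad2 difference turned to -0.0948 with the higher-scoring 50%, -0.198 with equal numbers of peaks and -0.455 on the relative scale. Ratios of mean cover without a library were added after the data were seen. The cause of these changes was not tested.

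With the replicate number as a block, 6 genes were higher in microglia in all 4 pairs (Smad4 joined), with an exact sign-flip p of 0.125, the smallest possible, and 0 in total cells. Deviations of same-numbered libraries correlated from -0.213 to 0.406 over 14445 genes, across all pairs of groups. List length also differs between replicates, so these values cannot tell whether the numbers pair samples. The other tests assumed no pairing. Depth is unknown, and neither an absent peak nor a list length can be set against it.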

Other observations

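For each of the 9 genes, the coding genes whose cover was most similar over the 8 libraries were listed by Pearson r, as a description over points that share list length. For Tgfbr1 they were Zdhhc9, Pram1 and Syngr4, and for Tgfbr2 they were Cd33, Swap70 and Lhfpl2. For Smad3 they were Clip2, B3galt5 and Cadm1, and for Ski they were Birc3, Srrd and Ftsj3. For Tgfb1 they were Ptcd1, Trib1 and Slc30a5, for Smad2 Sema6c, Msl1 and Ccdc40, and for Smad4 G2e3, Has1 and Senp8. For Smad6 they were Creg1, Tnks and Stimate, and for Smad7 Zc3h18, Polr1e and Ube2s. The lowest r among these 27 pairs was 0.987, for Smad2 with Ccdc40, and with 8 points and 21887 candidate genes such values are reached by selection.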
